A study of Mus musculus with 8 samples.

Results

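C1ra, C1rb, C1s1 and C1s2 are the mouse genes of the complement proteases C1r and C1s, and all 4 were measured in the RNA of 8 mouse livers. They are 4 of the 49585 genes in the count table and were found by gene symbol. They were selected on the counts of C1s2, which was near absent in LP245/+ replicates 2 and 3, so the values of C1s2 in LP245/+ livers are given as a description with no test. All 4 passed edgeR's filter on low counts, which left 16496 genes.

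The livers came from males that had eaten a high-fat diet without choline from 21 days of age on, for 3 months, and the study asked how hepatocyte p53 lesions change the liver under this diet. The LP+/+ group of 3 carried no Cre by the labels (Alb-Cre0), with an intact Trp53fl allele in replicates 1 and 2 and an unrecombined Trp53wm-R245W allele in replicate 3. The study's results describe LP+/+ animals as Alb-Cre carriers, while its methods name both Cre-negative and Alb-Cre littermates as controls. The sources thus differ on whether these groups also differ in Cre, and the labels were followed. The LPfl/+ group of 2 carried Alb-CreTG and Trp53fl/+, which deletes 1 Trp53 allele. The LP245/+ group of 3 carried Alb-CreTG and Trp53wm-R245W/+, which changes 1 allele from wild type to p53 R245W. The albumin promoter drives Cre in hepatocytes and, per the study, in cholangiocytes, while all other cells of the liver keep wild-type p53. RNA was taken from whole frozen tissue, in which fewer cells of a type and less RNA per cell cannot be told apart. The strain background of single animals is not given in the sources used here.

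Each library held between 26304526 and 31370714 counts. Cdkn1a, a gene that p53 induces, was lower in LP245/+ than in LP+/+ by a log2 fold change of -2.91 (SE 0.27, edgeR's quasi-likelihood test, adjusted p = 0.0155). Trp53 had 125 and 176 counts in the LPfl/+ livers and between 215 and 269 in the LP+/+ livers. The log2 fold change of Trp53 was -0.58 (SE 0.24, edgeR, adjusted p = 0.718). The hepatocyte markers Alb, Ttr, Apoa1, Serpina1a, Cps1 and Hnf4a were detected in every liver, with a summed level of 97400 to 141000 CPM, the counts scaled to a common library size. The library numbers fall into 2 series, with LP+/+ replicates 2 and 3 and all LP245/+ libraries in the first and LP+/+ replicate 1 and both LPfl/+ libraries in the second.

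C1r and C1s are serine proteases of the classical complement pathway. In blood they form a complex with C1q, which binds antibody on a target. C1r then cuts and activates C1s, and C1s cuts C4 and C2, which leads to the cleavage of C3. Hepatocytes make much of the circulating C1r and C1s, and the inhibitor Serping1 blocks both enzymes. The mouse carries a duplicate of each gene, and C1ra and C1s1 are the copies known for their expression in liver, while C1rb and C1s2 have been described mainly in the male reproductive tract.

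The 4 genes lie next to each other on chromosome 6 of GRCm38, and all are annotated as protein coding. C1ra (ENSMUSG00000055172) covers chr6:124512405-124523443 on the plus strand. C1s1 (ENSMUSG00000038521) covers chr6:124530345-124542359 on the minus strand, 6901 bases further on. C1rb (ENSMUSG00000098470) follows after 27934 bases at chr6:124570294-124581171 on the plus strand. C1s2 (ENSMUSG00000079343) follows after 43453 bases at chr6:124624625-124636085 on the minus strand. The order is thus a C1r and C1s pair, followed by a second pair in the same orientations. C1rl, a gene related to C1r, ends 1761 bases before C1ra.

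How well reads separate the copies depends on their sequences. The coding sequences of C1ra and C1rb were identical at 98.0% of 2121 aligned bases, with 42 mismatches and 1 identical run of 757 bases. Those of C1s1 and C1s2 were identical at 95.7% of 2085 aligned bases, with 90 mismatches and a longest identical run of 229 bases. C1ra and C1s1, which are older relatives, were identical at 61.2%. Of all windows of 76 bases, the read length, 1025 of 2049 held no difference between C1ra and C1rb, and 383 of 2010 held none between C1s1 and C1s2. By single windows, the C1s copies can therefore be told apart at more positions than the C1r copies. The libraries had paired reads, and pairs were not considered in these windows.

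**Figure D1:**
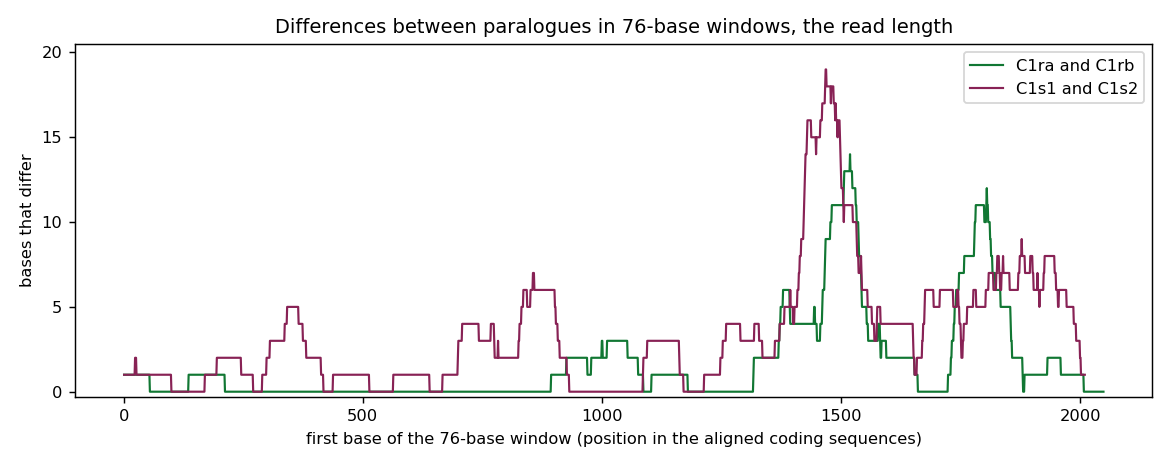
Number of bases that differ between the paralogues (vertical axis) in each 76-base window, by the position of the first base of the window in the aligned coding sequences (horizontal axis, bases). The green line is C1ra against C1rb and the purple line C1s1 against C1s2. The C1s pair reached 19 differences in a window. The C1r pair reached 14, with the bases of a gap counted as differences, and 12 in windows with no gap. Both lines lie at 0 over long stretches.

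The following 75-base stretches of GRCm38 hold the codon of the active-site serine of each protease, and they show how alike the copies are at the catalytic centre. Capitals mark the bases that differ from the paralogue. The stretches lie at chr6:124522786-124522860 (C1ra, plus strand, serine codon 656), chr6:124580832-124580906 (C1rb, plus strand, codon 655), chr6:124531082-124531156 (C1s1, minus strand, codon 637) and chr6:124625304-124625378 (C1s2, minus strand, codon 637).
C1ra: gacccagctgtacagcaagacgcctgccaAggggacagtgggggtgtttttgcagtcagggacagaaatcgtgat
C1rb: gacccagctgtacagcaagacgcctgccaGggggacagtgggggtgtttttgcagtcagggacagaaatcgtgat
C1s1: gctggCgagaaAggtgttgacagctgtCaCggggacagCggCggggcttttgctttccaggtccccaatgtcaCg
C1s2: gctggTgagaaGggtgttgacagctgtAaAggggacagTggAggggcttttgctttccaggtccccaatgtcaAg
The C1r copies differed at 1 of these 75 bases and the C1s copies at 7.

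Other coding stretches separate the copies clearly. The windows of 76 bases with the most differences and no gap lie at chr6:124522661-124522736 (C1ra, plus strand), chr6:124580707-124580782 (C1rb, plus strand), chr6:124531486-124531561 (C1s1, minus strand) and chr6:124625708-124625783 (C1s2, minus strand), with the same use of capitals.
C1ra: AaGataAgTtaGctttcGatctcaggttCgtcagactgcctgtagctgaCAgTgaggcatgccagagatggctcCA
C1rb: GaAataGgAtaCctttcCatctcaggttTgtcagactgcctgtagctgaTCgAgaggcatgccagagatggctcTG
C1s1: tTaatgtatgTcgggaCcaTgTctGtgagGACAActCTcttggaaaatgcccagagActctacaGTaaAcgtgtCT
C1s2: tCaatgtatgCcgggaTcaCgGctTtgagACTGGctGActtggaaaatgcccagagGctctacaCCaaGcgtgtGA
The C1r copies differed at 12 of the 76 bases and the C1s copies at 19. Over 1 annotated transcript a gene, 42.1% of the 76-base positions of C1ra and 49.6% of those of C1rb also occurred in another annotated gene, mainly in the other copy. The share was 27.7% for C1s1 and 15.9% for C1s2. C1s2 was thus the member with the smallest share of ambiguous positions.

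The regions upstream of the C1s copies are far less alike than their coding sequences. In the RefSeq promoter windows of GRCm38.p6, 250 bases before to 50 after the start, the best local alignment of C1s1 and C1s2 held 71.8% identical bases over 71 aligned bases. That of C1ra and C1rb held 93.9% over 148 bases, but 216 and 136 of their 250 upstream bases lie in annotated GENCODE exons, against 0 for the C1s copies. The 250 bases upstream of C1s1 and C1s2 are printed because they show how far the copies part outside the coding sequence. They lie at chr6:124542360-124542609 and chr6:124636086-124636335, both on the minus strand, and capitals mark ATTGG, the reverse of the CCAAT box.
C1s1: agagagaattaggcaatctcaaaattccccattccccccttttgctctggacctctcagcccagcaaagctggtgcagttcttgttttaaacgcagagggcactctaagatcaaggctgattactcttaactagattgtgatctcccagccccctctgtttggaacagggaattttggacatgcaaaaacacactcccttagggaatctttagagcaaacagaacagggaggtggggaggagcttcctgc
C1s2: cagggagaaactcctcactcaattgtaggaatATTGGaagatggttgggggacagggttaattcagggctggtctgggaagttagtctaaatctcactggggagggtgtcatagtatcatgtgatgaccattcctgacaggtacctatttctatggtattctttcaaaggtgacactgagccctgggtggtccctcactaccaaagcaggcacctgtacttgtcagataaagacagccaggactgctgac
Both strands of the 300-base windows were searched for 4 motifs. Another RefSeq window of C1s1 was left out of this search and of the alignment, so both hold for the start used. The STAT site TTCNNNGAA occurred once each in C1ra and C1rb, as TTCCCTGAA, and not in C1s1 or C1s2, and 8.3% of 32851 RefSeq windows held it. The CCAAT box occurred once, in C1s2, against 37.4% of all windows. The interferon-stimulated response element (3.44% of all windows) and the TATA box TATAAA (13.6%) occurred in none of the 4 windows.

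C1ra and C1s1 made up nearly all of the C1r and C1s signal in every liver. Per kilobase of exon, the mean level in LP+/+ livers was 126 CPM for C1s1, 65.6 CPM for C1ra, 7.35 CPM for C1s2 and 0.453 CPM for C1rb. This order held in LPfl/+ livers, with 111, 65.1, 5.87 and 0.42 CPM per kilobase. In LP245/+ livers the means were 116, 57.6, 1.66 and 0.0553 CPM per kilobase, and that of C1s2 is an average over livers that stand far apart. The neighbours in this order did not overlap within LP+/+ or LPfl/+ livers. Levels per kilobase are not corrected for the positions that the copies share.

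C1s1 encodes the C1s protease of the major copy. It had 9739, 13031 and 12541 counts in LP+/+ replicates 1, 2 and 3, and 10282 and 9193 in LPfl/+ replicates 1 and 2. The LP245/+ replicates 1, 2 and 3 had 8077, 11094 and 11010 counts. After TMM normalization its level was 395 CPM (SD 56.8, n = 3) in LP+/+, 348 CPM (SD 28.3, n = 2) in LPfl/+ and 363 CPM (SD 57.5, n = 3) in LP245/+. The 3 genotypes overlapped, and LP245/+ replicate 1 was the lowest of all livers at 297 CPM.

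C1ra encodes the major copy of C1r, the protease that activates C1s. It had 6095, 5663 and 5703 counts in the LP+/+ livers, 5768 and 5079 in the LPfl/+ livers, and 4456, 5049 and 4750 in the LP245/+ livers. The levels were 196 CPM (SD 10, n = 3), 194 CPM (SD 17.8, n = 2) and 172 CPM (SD 8.95, n = 3). The LP245/+ livers, at 164 to 181 CPM, were all below the LP+/+ livers, at 189 to 207 CPM. The ranges nearly touched, and both the highest LP245/+ and the lowest LPfl/+ liver were at 181 CPM.

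C1s2 is the second C1s copy and the gene for which the set was chosen. It had 523, 663 and 562 counts in LP+/+ replicates 1, 2 and 3, and 489 and 385 in LPfl/+ replicates 1 and 2. LP245/+ replicate 1 had 358 counts, while replicates 2 and 3 had 2 counts each. Expressed as CPM, 6 livers lay between 13.1 and 22.3, and LP245/+ replicates 2 and 3 were at 0.0718 and 0.0716. These last levels are below the floor of 3 counts, which corresponds to 0.108 and 0.107 CPM in these libraries. Compared with the LP+/+ livers, the level was 0.367% (exact 95% counting interval 0.0444% to 1.33%) in replicate 2, 0.366% (0.0443% to 1.32%) in replicate 3 and 67.2% (59.8% to 75.3%) in replicate 1. The intervals cover counting error only. C1s2 was thus split within 1 genotype, with LP245/+ replicate 1 next to the lowest LPfl/+ liver.

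C1rb is the second C1r copy and had the fewest counts of the 4 genes in every liver. It had 44, 36 and 18 counts in the LP+/+ livers, 34 and 23 in the LPfl/+ livers, and 10, 0 and 1 in LP245/+ replicates 1, 2 and 3. The levels were 1.10 CPM (SD 0.46, n = 3) in LP+/+, 1.02 CPM (SD 0.28, n = 2) in LPfl/+ and 0.134 CPM (SD 0.202, n = 3) in LP245/+. Every LP245/+ liver was below every other liver, and the lowest 2 were the livers with the lowest C1s2. Against the LP+/+ livers, replicate 1 was at 33.5% (exact 95% counting interval 15.6% to 64.2%) and replicate 3 at 3.26% (0.0818% to 18.6%). Replicate 2, with 0 counts, was at least 10.2-fold lower, taking a floor of 3 counts in that library. The depth behind C1rb is small, and its values in single livers carry wide intervals.

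**Figure D2:**
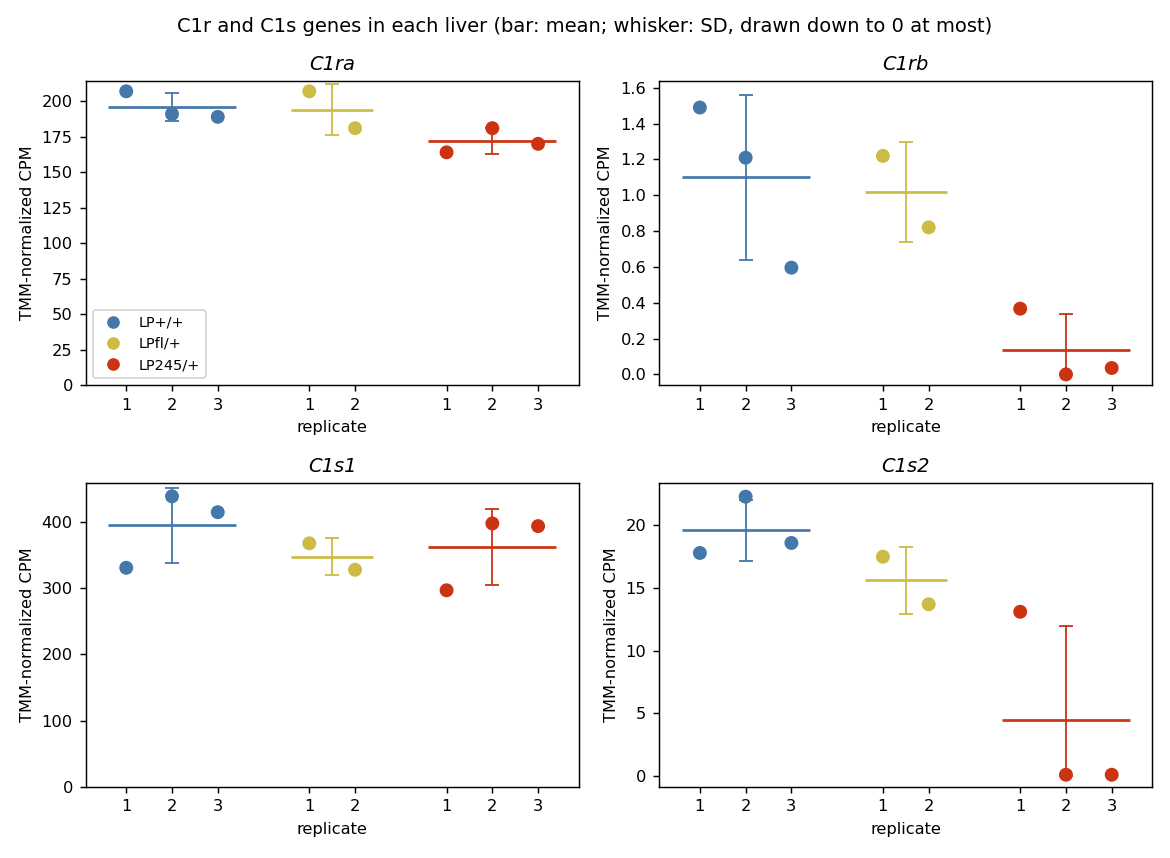
TMM-normalized CPM of C1ra, C1rb, C1s1 and C1s2 (vertical axes from 0, linear, each with its own range) in each liver, by replicate number and genotype (horizontal axes). Points are livers, bars are means and whiskers the SD, drawn down to 0 at most. LP245/+ replicates 2 and 3 lie near 0 for C1s2 and C1rb, while their C1s1 values, 398 and 394 CPM, lie among the LP+/+ livers.

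Within a liver, the 2 copies of a protease can be compared without any scaling between libraries. C1s2 made up 5.1% (exact binomial 95% interval 4.68% to 5.54%), 4.84% (4.49% to 5.21%) and 4.29% (3.95% to 4.65%) of the C1s1 and C1s2 counts in LP+/+ replicates 1, 2 and 3. In LPfl/+ replicates 1 and 2 it made up 4.54% (4.15% to 4.95%) and 4.02% (3.64% to 4.43%). In LP245/+ replicate 1 it made up 4.24% (3.82% to 4.7%). The 6 livers thus kept C1s2 within a narrow band of 4.02% to 5.1%. In LP245/+ replicates 2 and 3 the share was 0.018% (0.00218% to 0.0651%) and 0.0182% (0.0022% to 0.0656%), below the floor that 3 counts set there, 0.027% and 0.0272%. So in LP245/+ replicate 1, where C1s1 itself was lowest, the share of C1s2 stayed inside the range of the other 2 genotypes.

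C1rb made up 0.717% (exact binomial 95% interval 0.521% to 0.961%), 0.632% (0.443% to 0.873%) and 0.315% (0.187% to 0.497%) of the C1ra and C1rb counts in the LP+/+ livers. The LPfl/+ livers had 0.586% (0.406% to 0.818%) and 0.451% (0.286% to 0.676%). LP245/+ replicate 1 had 0.224% (0.107% to 0.411%), an interval that overlapped that of LP+/+ replicate 3. LP245/+ replicate 2 had 0 of 5049 counts, which allows a share of up to 0.0594% by the floor of 3 counts and 0.073% by the exact interval, and replicate 3 had 0.021% (0.000533% to 0.117%). The C1rb share of replicates 2 and 3 therefore lay below that of every other liver, as for C1s2.

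**Figure D3:**
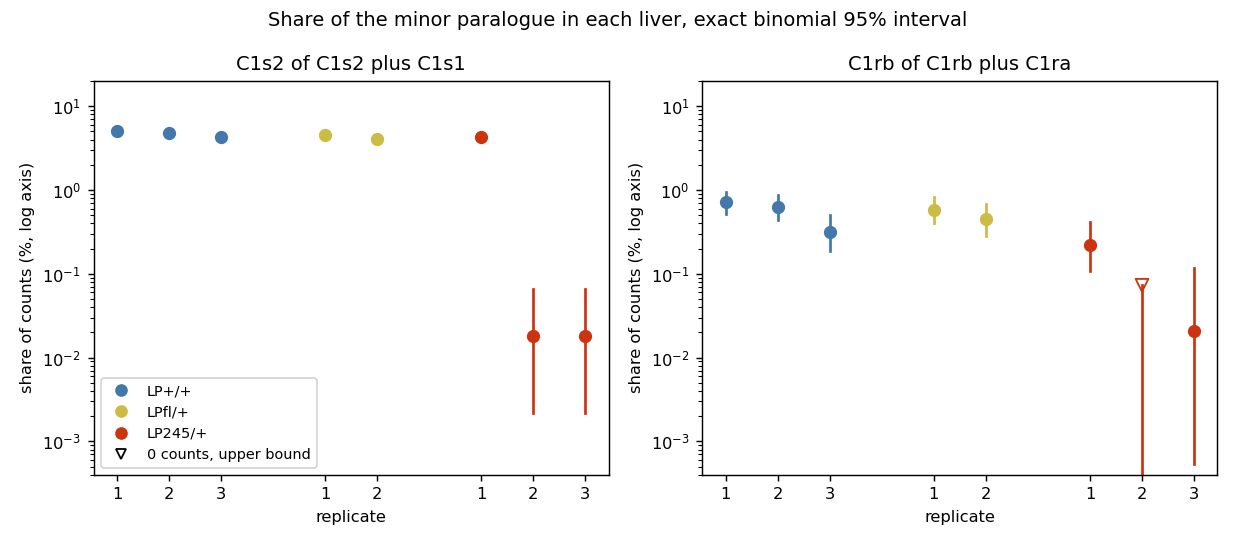
Share of the minor copy in the counts of both copies, in percent on a log axis, for C1s2 (left) and C1rb (right) in each liver by replicate number and genotype. Vertical lines are exact binomial 95% intervals, and the open triangle marks the upper bound for a count of 0. In the left panel 6 livers lie between 4.02% and 5.1%, and LP245/+ replicates 2 and 3 lie at 0.018% and 0.0182%.

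Taking both copies together, C1r counts were between 0.416 and 0.598 times the C1s counts over all 8 livers. LP245/+ replicates 2 and 3, at 0.455 and 0.431, lay inside the LP+/+ range, and LP245/+ replicate 1 was at 0.529. The sums mostly follow C1ra and C1s1, since C1s2 and C1rb never made up more than 5.1% and 0.717% of a sum.

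The comparison of LPfl/+ with LP+/+ does not contrast the livers that chose the genes, and here the members were tested. The LP245/+ livers still share in the estimate of the spread, and so in the standard errors. Of the 4 genes 0 passed the cutoff (adjusted p up to 0.05 with a log2 fold change of 1 or more in either direction), and the share was 0% of all genes. An unadjusted p under 0.05 was found for 0 of the 4 members and for 6.89% of all genes. C1ra had a log2 fold change of -0.01 (SE 0.12, 95% interval -0.27 to 0.25, edgeR, adjusted p = 0.99). For C1s1 it was -0.18 (SE 0.17, 95% interval -0.57 to 0.21, edgeR, adjusted p = 0.85). C1rb had a log2 fold change of -0.11 (SE 0.67, 95% interval -1.62 to 1.4, edgeR, adjusted p = 0.981). For C1rb the interval does not exclude a change of the size of the cutoff in either direction. In a fit of only these 2 genotypes its standard error was 0.44.

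C1s2 had a log2 fold change of -0.32 in LPfl/+ compared with LP+/+ (SE 1.11, 95% interval -2.82 to 2.17, edgeR, adjusted p = 0.965). Both LPfl/+ livers, at 17.5 and 13.7 CPM, were below all 3 LP+/+ livers, at 17.8 to 22.3 CPM, a pattern that 12.4% of all genes showed. The standard error is that of a fit in which the LP245/+ livers share in the estimate of the spread. In a fit of only these 2 genotypes the log2 fold change was -0.32 with a standard error of 0.15 (edgeR, adjusted p = 0.685). C1s2 did not pass the test in either fit.

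The ratios within a liver gave the same picture for this comparison. The mean log2 ratio of C1s2 to C1s1 was -4.48 in LPfl/+ and -4.33 in LP+/+, a difference of -0.15 with a pooled SD of 0.13 (exact permutation test, 2-sided, p = 0.3). The mean log2 ratio of C1rb to C1ra was -7.57 and -7.55, a difference of -0.02 with a pooled SD of 0.54 (exact permutation test, 2-sided, p = 1). With 2 against 3 livers there are 10 arrangements, and the smallest p they allow is 0.1, so neither ratio could pass 0.05.

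In LP245/+ compared with LP+/+, which the choice of the genes used, the fold changes are descriptions. The log2 fold change was -2.15 (SE 1.07) for C1s2 and -3.01 (SE 0.78) for C1rb. It was -0.19 (SE 0.10) for C1ra and -0.12 (SE 0.15) for C1s1. All LP245/+ livers were below all LP+/+ livers for C1ra and C1rb, a pattern that 5.08% of all genes showed, while C1s1 overlapped. C1s2 had this pattern too, but it was chosen for its low values in LP245/+ livers. The size for C1s2 depended on 1 liver. Without LP245/+ replicate 1 it was -8.01 (SE 0.30), and that of C1rb was -5.64 (SE 0.85). With replicate 1 as the only LP245/+ liver, an alternative added after the data were seen, it was -0.58 (SE 0.20) for C1s2, -1.58 (SE 0.67) for C1rb, -0.42 (SE 0.19) for C1s1 and -0.26 (SE 0.14) for C1ra. In that fit the lone liver is assumed to vary like the other groups.

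In LP245/+ compared with LPfl/+, the log2 fold change was -1.82 (SE 1.15) for C1s2, -2.90 (SE 0.84) for C1rb, -0.18 (SE 0.12) for C1ra and 0.06 (SE 0.17) for C1s1. This comparison shares its livers with the other comparisons. C1ra and C1rb were again lower in every LP245/+ liver, a pattern that 13.3% of all genes showed, and C1s1 again overlapped. For C1ra the nearest livers of the 2 groups were both at 181 CPM. C1s2, chosen for its low values, was also lower in every LP245/+ liver. Without LP245/+ replicate 1 the log2 fold change of C1s2 was -7.68 (SE 0.31) and that of C1rb -5.52 (SE 0.90). The LP245/+ and LPfl/+ libraries belong to different series, so series and genotype cannot be told apart here beyond the link that the LP+/+ livers give. LP+/+ replicates 2 and 3, of the same series as the LP245/+ libraries, had 663 and 562 counts of C1s2.

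The genes around the members were examined liver by liver, to see how far along the chromosome the low values reached. Within 250 kb of the 4 genes, 38 other annotated genes had a row in the table and 17 were tested. In LP245/+ replicate 2 their levels differed from the LP+/+ mean by a median of -0.06 on the log2 scale, from -0.93 (Cd4) to 0.26 (Clstn3). In LP245/+ replicate 3 the median was -0.07, from -0.55 (Cd4) to 0.49 (Gm44096). In the same livers C1s2 lay at -7.32 and -7.33, and C1rb at -4.43 and -3.65. No tested neighbour came near the deviation of C1s2 or C1rb in these livers.

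The genes next to the low members stayed close to the LP+/+ mean. C1s1, which lies before C1rb, was at 0.02 and 0.01 in LP245/+ replicates 2 and 3 on this log2 scale. Lpcat3, a phospholipid acyltransferase gene whose start is 26.9 kb from that of C1s2, was at 0.03 and -0.10. C1rl, before C1ra, was at 0.17 and 0.18. Within 250 kb, the tested genes with such low values were thus C1rb and C1s2, which are neighbours of each other. Beyond this window, Pianp, at chr6:124996694-125003096, had 4 and 2 counts in LP245/+ replicates 2 and 3. It had 13 to 23 counts in the other livers.

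**Figure D4:**
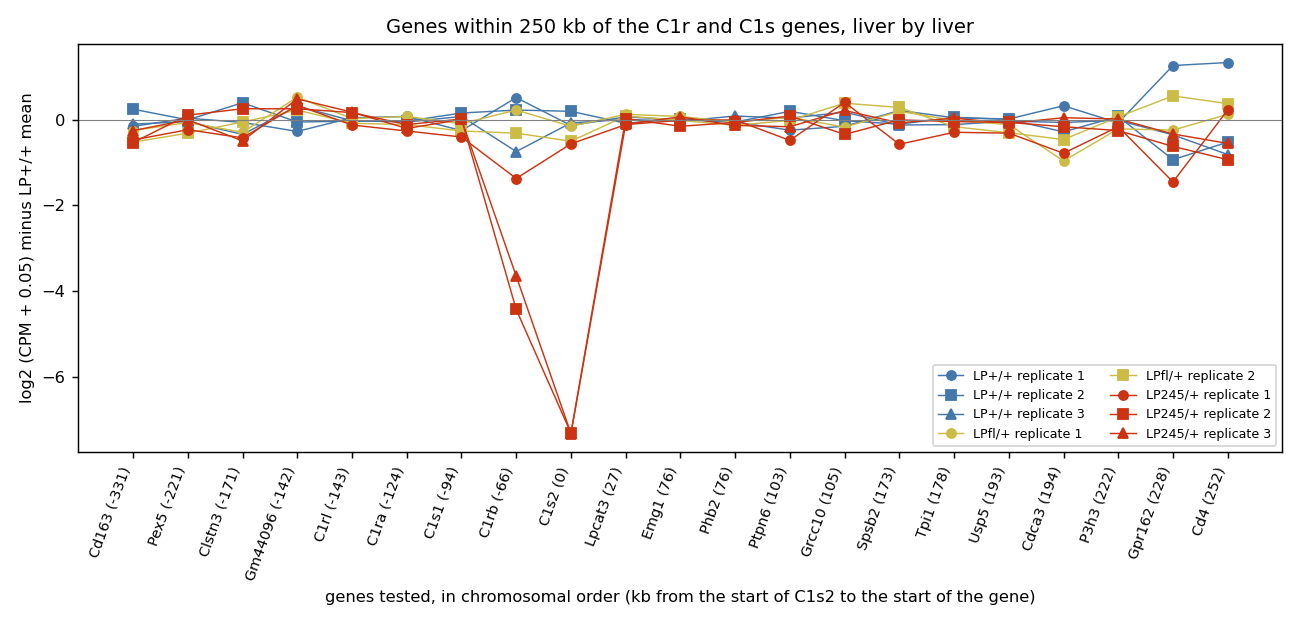
Level of each tested gene within 250 kb of the 4 members, as log2 of CPM plus 0.05 minus the mean of the LP+/+ livers (vertical axis), in chromosomal order with the distance from the start of C1s2 in kb (horizontal axis). Each line is 1 liver, coloured by genotype. LP245/+ replicates 2 and 3 drop at C1rb and C1s2, to -7.32 and -7.33 at C1s2, and stay between -0.93 and 0.49 at the other neighbours.

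Over the genotypes, 0 of the 17 neighbours passed the cutoff in any comparison, and 1, 1 and 0 had an unadjusted p under 0.05 in LPfl/+ against LP+/+, LP245/+ against LP+/+ and LP245/+ against LPfl/+. Of all genes, 0%, 0.00606% and 0% passed the cutoff in these comparisons, and 6.89%, 5.93% and 8.51% had such an unadjusted p. Between LP245/+ and LP+/+ their median log2 fold change was -0.13, from -1.12 (Gpr162) to 0.35 (Gm44096), and 2 of 17 were lower in every LP245/+ liver, against 5.08% of all genes. In LPfl/+ compared with LP+/+ the median was -0.08, and 4 of 17 were lower in both LPfl/+ livers, against 12.4% of all genes. Cd163, a macrophage scavenger receptor gene at the edge of the window, was the gene with such a p in both comparisons with LP+/+. The values were -0.39 (log2) in LPfl/+ (SE 0.15, edgeR, adjusted p = 0.704) and -0.43 (log2) in LP245/+ (SE 0.14, edgeR, adjusted p = 0.795). Gm44096 overlaps C1rl on the opposite strand, and its reads depend on a strand setting that is not given in the sources used here.

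The genes most like C1s2 over the 8 livers were ranked. Pearson's r with the log2 CPM of C1s2 was computed for 1589 tested genes whose level spanned at least 2 on the log2 scale, as a description of 8 points that mostly sets LP245/+ replicates 2 and 3 against the rest. The 10 highest were Gm13394 (r = 0.999), Pianp (0.958), C1rb (0.956), Gucy2c (0.944), Ak7 (0.92), Gm20707 (0.915), Dtx1 (0.911), Cnbd2 (0.904), Tnfrsf10b (0.899) and H2-T-ps (0.889). C1rb, the neighbour of C1s2, was thus 3rd. The genes from Ak7 to H2-T-ps had at most 25 counts in any liver. In LP245/+ replicates 2 and 3 they had 2 to 4 counts, near the floor of 3 counts. Of the 10 genes 3 lie on chromosome 6 (30%), against 7.49% of the 1589 eligible genes and 5.5% of all tested genes. C1rb, itself a member, is among these 3. The ranking rests on the C1s2 values that chose the genes, so these shares are a description with no test.

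Gm13394, annotated as a processed pseudogene at chr2:28933610-28934609, was the only one of the 10 whose low values were as far from the other livers as those of C1s2. It had 1448, 1628 and 1621 counts in the LP+/+ livers, 1355 and 1276 in the LPfl/+ livers, and 1317, 6 and 5 in LP245/+ replicates 1, 2 and 3. So it also separated LP245/+ replicate 1 from replicates 2 and 3. Of its 925 positions of 76 bases, 849 (91.8%) also occurred in Gapdh, the glycolysis gene at chr6:125161715-125166467 on the same chromosome as the C1r and C1s genes. In all, 116 annotated genes shared positions with Gm13394, among them Gm10359 and Gm12671, and only Gapdh is compared here.

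Gapdh had its highest counts in these livers, a comparison made after the values were seen. In LP+/+ it had 2113, 2244 and 1894 counts, in LPfl/+ 1711 and 1645, and in LP245/+ replicates 1, 2 and 3 it had 1799, 3137 and 2666. The sum of Gapdh and Gm13394 was 116 to 130 CPM in LP+/+, 104 and 110 CPM in LPfl/+, and 114, 113 and 95.6 CPM in LP245/+. Gm13394 made up 40.7% to 46.1% of this sum in 6 livers, but 0.191% (exact binomial 95% interval 0.0701% to 0.415%) and 0.187% (0.0608% to 0.436%) in LP245/+ replicates 2 and 3. The sum of replicate 2 thus lay next to that of replicate 1, while that of replicate 3, at 95.6 CPM, was below those of all other livers. The split between the genes in replicates 2 and 3 differed from that in replicate 1.

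**Figure D5:**
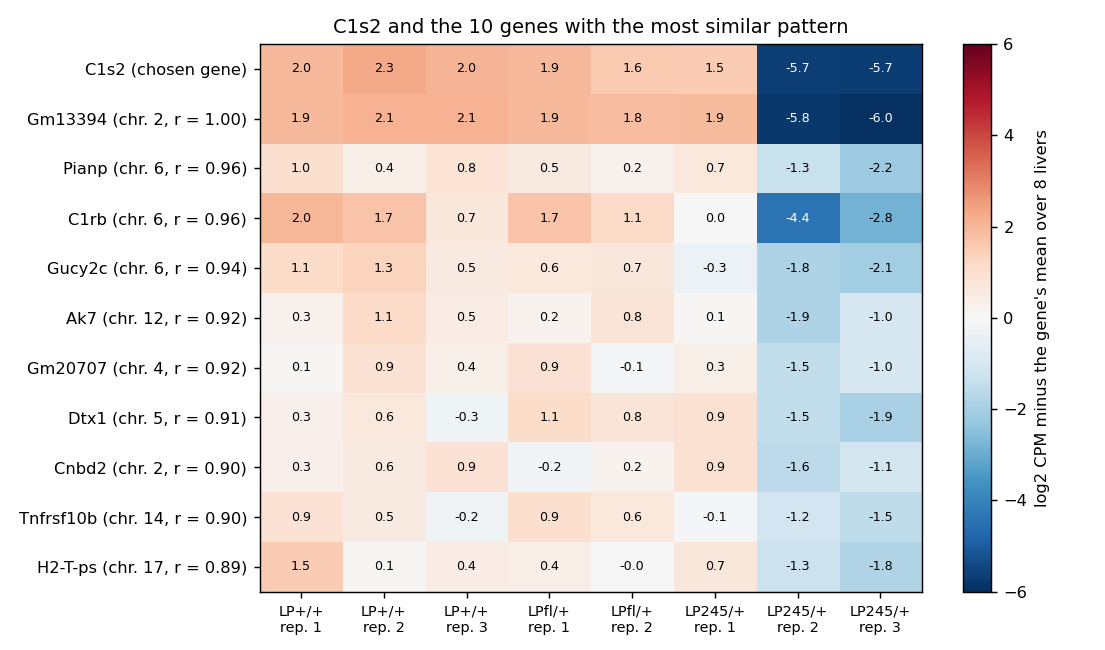
Level of C1s2 and of the 10 genes most like it in each liver, as log2 CPM minus the mean of the gene over the 8 livers (numbers and colours, red above and blue below the mean), with chromosome and Pearson's r. LP245/+ replicates 2 and 3 are blue in every row, and Gm13394, at -5.78 and -6.02, comes nearest to C1s2, at -5.67 and -5.68.

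Pianp and Gucy2c are the other chromosome 6 genes of the 10, and neither shares a 76-base position with another annotated gene. Pianp, at chr6:124996694-125003096, was counted 23, 15 and 21 times in LP+/+, 16 and 13 times in LPfl/+, and 17, 4 and 2 times in LP245/+. Gucy2c, a guanylyl cyclase receptor gene at chr6:136697284-136781765, was counted 150, 178 and 102 times in LP+/+, 101 and 106 times in LPfl/+, and 51, 18 and 15 times in LP245/+. Both were lowest in LP245/+ replicates 2 and 3. With Spearman's rho in place of r, 4 of the 10 genes were the same, and with no minimum span 5 were the same.

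None of the other classical and lectin pathway genes examined passed the cutoff. Of 17 genes of these pathways, all 17 were tested, and 0 passed the cutoff in any of the 3 comparisons, which 0.00606% of all genes did in LP245/+ compared with LP+/+ and 0% in the others. For LPfl/+ compared with LP+/+, 11 of 17 had a log2 fold change below 0, with a median of -0.05, and 0 had an unadjusted p under 0.05. For LP245/+ compared with LP+/+ it was 13 of 17, with a median of -0.11, and again 0 had an unadjusted p under 0.05, against 5.93% of all genes. For LP245/+ compared with LPfl/+ it was 13 of 17, with a median of -0.04. The median over all tested genes was 0 in each comparison.

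C1qa, C1qb and C1qc encode the chains of C1q, the recognition part of C1, and come from macrophages rather than hepatocytes. Between LP245/+ and LPfl/+ they were the 3 of 17 genes with an unadjusted p under 0.05, against 8.51% of all genes. Their log2 fold changes were -0.41, -0.45 and -0.49 (SE 0.14, 0.14 and 0.15), with edgeR's adjusted p at 0.468, 0.44 and 0.424. None of the 3 passed the cutoff. In LPfl/+ replicates 1 and 2, C1qa was at 57.8 and 42.3 CPM, C1qb at 53.9 and 38.8, and C1qc at 38.6 and 27.8. For all 3 genes LPfl/+ replicate 2 lay within the range of the LP+/+ livers. The LP245/+ and LPfl/+ libraries also belong to different series. The summed level of 7 macrophage markers was 240 to 288 CPM in LP245/+, 284 to 390 CPM in LPfl/+ and 275 to 328 CPM in LP+/+, and its part in the C1q values was not tested.

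C4b and C2 are the substrates of C1s, and C3 is the next step. C4b had 1380 CPM (SD 161, n = 3) in LP+/+ and 1190 CPM (SD 257, n = 3) in LP245/+, a log2 fold change of -0.21 (SE 0.17, edgeR, adjusted p = 0.868). C2 had 12.5 CPM (SD 0.613) and 12 CPM (SD 2.06), and C3 had 6830 CPM (SD 1340) and 6780 CPM (SD 947). All of them overlapped between these genotypes. C4a, a close copy of C4b whose reads may be split with it, varied most among LP+/+ livers, from 12.4 to 46.7 CPM.

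Serping1, the inhibitor of C1r and C1s, had 568 CPM (SD 44.9, n = 3) in LP+/+ and 537 CPM (SD 61.9, n = 3) in LP245/+, a log2 fold change of -0.08 (SE 0.13, edgeR, adjusted p = 0.942). Per kilobase of exon, its LP+/+ level of 244 CPM was above those of C1s1 and C1ra. C1rl had 58.5 CPM per kilobase in LP+/+, close to the 65.6 of C1ra. These levels are not corrected for positions shared between genes, 42.1% in C1ra and 27.7% in C1s1. That share was not computed for C1rl or Serping1.

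Marker lists were examined beside the low members. The acute phase list, genes that hepatocytes raise in inflammation, summed to 2650 to 3220 CPM in LP+/+, 2560 and 2600 CPM in LPfl/+, and 1820, 2590 and 2790 CPM in LP245/+ replicates 1, 2 and 3. Its lowest value was thus in LP245/+ replicate 1. Between LP245/+ and LP+/+, 7 of its 8 genes had a log2 fold change below 0 with a median of -0.51, 4 had an unadjusted p under 0.05 in edgeR (5.93% of all genes did), and 0 passed the cutoff (0.00606% of all genes). Between LP245/+ and LPfl/+ 7 of the 8 were below 0 with a median of -0.71, 5 had an unadjusted p under 0.05 (8.51% of all genes), and 0 passed the cutoff. The interferon response list summed to 66.7 to 142 CPM in LP+/+, 84.8 and 130 CPM in LPfl/+ and 72.2 to 89.2 CPM in LP245/+. Between LP245/+ and LP+/+ all 8 of its genes had a log2 fold change below 0 with a median of -0.27, 1 had an unadjusted p under 0.05, and 0 passed the cutoff. Between LP245/+ and LPfl/+ it was 7 of 8 with a median of -0.38, and again 1 and 0. The part of either response in the C1r and C1s values was not tested.

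The lists for other cell types also overlapped between LP245/+ and LP+/+. The stellate cell and fibroblast list summed to 542 to 587 CPM in LP+/+ and 557 to 580 CPM in LP245/+. The endothelial list summed to 347 to 450 CPM and 407 to 437 CPM, and the cholangiocyte list to 29.6 to 35.3 CPM and 23.3 to 34.3 CPM. The lymphocyte list summed to 2.08 to 2.19 CPM and 1.44 to 2.15 CPM, and the neutrophil list, of which 2 of 4 genes were tested, to 1.39 to 1.89 CPM and 1.58 to 2.25 CPM. The part of these cells in the C1r and C1s values was not tested.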

How the data were processed

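Total RNA of 8 livers was sequenced from stranded TruSeq libraries. The authors deposited raw counts per gene, made with STAR against GRCm38 and not normalized. The strand setting and annotation release are not given in the sources used here. All 8 columns matched a sample. Identifiers were matched to GENCODE M21, which left 259 of 49585 without a symbol. No libraries agreed within sampling noise, and the lowest chi-square per gene over 28 pairs was 19.9. Nothing but the labels says that livers are separate animals.

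The members and lists were chosen with earlier results of these data known. Tests on counts used edgeR 4.0.16 under R 4.3.3 (TMM, filterByExpr, quasi-likelihood F) with Benjamini-Hochberg adjustment over 16496 genes, all 8 livers together, which was also tested on simulated data. DESeq2 1.42.0 was an alternative. CPM used TMM library sizes, and exon lengths were unions over transcripts. Shares have exact binomial intervals (scipy 1.17.1). Log2 ratios within a liver used a pseudocount of 0.5. Sequences came from GRCm38 and RefSeq GRCm38.p6, in which all 4 members had a promoter entry, and were aligned with Biopython 1.88. Named genes were the members, tested genes within 250 kb, the pathway list, the 10 genes most like C1s2, and Trp53 and Cdkn1a. Gapdh was added after its values were seen. Replicate numbers were not treated as pairs, since the correlations of same-numbered livers were between -0.08 and 0.02 over 7 pairs. Totals of 26304526 to 31370714 counts put the floor of 3 counts at 9.56e-06% to 1.14e-05% of a library. Intervals and floors cover counting error only.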

Additional observations from a re-analysis of the deposited data

How the results depend on the processing

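The number of genes past the cutoff depended on the processing, while 0 of the members passed it in LPfl/+ compared with LP+/+ under any setting that gave a value. For LPfl/+ with LP+/+, LP245/+ with LP+/+ and LP245/+ with LPfl/+, the main numbers were 0, 1 and 0. They were 14, 20 and 122 without the filter on low counts, 9, 10 and 54 with DESeq2, and 3, 3 and 10 with the library series as a covariate. A fit of only the 2 groups gave 51 for LP245/+ with LPfl/+. Leaving out each liver in turn gave 0 to 59, 0 to 5 and 0 to 3, and the 59 came without LP+/+ replicate 1. With the replicate number as a block, which neither the labels nor the deviations pair, LP245/+ with LP+/+ gave 0, and C1s2 had a log2 fold change of -0.92 (SE 1.18, edgeR, adjusted p = 0.912) in LPfl/+ and -3.19 (SE 1.17) in LP245/+.

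Among the members, C1ra in LPfl/+ compared with LP+/+ turned to 0.05 with library totals, and ranged from -0.12 to 0.06 as each liver was left out. C1rb in that comparison ranged from -0.43 to 0.17, C1s1 from -0.29 to -0.11 and C1s2 from -0.52 to -0.18. C1s1 turned to 0.07 with the library series as a covariate. With that covariate, C1ra and C1s1 in LP245/+ compared with LPfl/+ were -0.05 and -0.31. Leaving out each liver, C1ra in that comparison ranged from -0.26 to -0.08, C1s1 from -0.02 to 0.19, C1rb from -5.52 to -2.32 and C1s2 from -7.68 to -1.24. In LP245/+ compared with LP+/+ C1ra ranged from -0.23 to -0.14, C1s1 from -0.23 to 0, C1rb from -5.64 to -2.43 and C1s2 from -8.01 to -1.57. In an alternative added after the data were seen, without LP245/+ replicates 2 and 3, C1s1 was at -0.42. The difference in the log2 ratio of C1rb to C1ra ranged from -0.38 to 0.2 and that of C1s2 to C1s1 from -0.25 to -0.06. Requiring 10 counts or more in all livers removed C1rb and C1s2, so it gave no value for them. At this depth C1rb had 44 counts at most in a liver. Where a value moved, the cause was not tested.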
